A study of Mus musculus with 15 samples.

Results

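Ventral tissue of the E9.5 dorsal aorta (E9 AoV) was compared with dorsal tissue of the same stage (E9 AoD) across all genes, over 6 of the 15 libraries of the series, 3 in each group. Of 28876 genes listed, 27371 had a read in at least 1 of the 6 libraries, and the 17725 with at least 0.5 RPM (reads of a gene per M reads assigned to any gene) in at least 1 of them were tested. The study profiled the aorta-gonad-mesonephros (AGM) region of C57BL/6 mouse embryos by RNA-seq to learn which signals surround the first hematopoietic stem cells (HSCs), and this comparison gives its ventral to dorsal polarity at embryonic day 9.5 (E9.5). The labels name no transgene and no treatment for either group. Each library was made from subdomains dissected and pooled from many embryos in separate experiments, so a replicate is a pool and not an animal, and each subdomain held whatever tissue came away with that side of the vessel. The same contrast at E10.5 (E10 AoV against E10 AoD, 3 libraries each) is used below to ask which differences changed with stage.

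At this stage the paired aortae have just fused beneath the notochord, with the neural tube and somites above them and the gut, its mesenchyme and the coelomic lining below. HSC precursors bud from the endothelium of the ventral aortic wall, while the dorsal wall lies next to axial tissues that secrete patterning signals of their own. In a dissected strip of this kind, the RNA of the vessel is therefore measured together with that of its neighbours, and in bulk tissue fewer cells of a type cannot be told apart from less RNA per cell.

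The depth of the 6 libraries was 37.2 to 46.7 M reads, worked out from the steps between low RPM values, so that a count of 3 reads corresponded to 0.0642 to 0.0807 RPM. At the level of 0.5 RPM a library held 16390 to 16981 genes, and the 10 most abundant genes took 3.73% to 4.73% of the reads. Pearson correlation across genes on the log scale was 0.9924 to 0.9958 within groups and 0.9416 to 0.9633 between them. Replicate 3 of E9 AoD lay farthest to the dorsal side, its median deviation from the group mean being -0.20 (log2) over the genes called higher in E9 AoV and 0.21 over those called lower. The count of called genes was 1914 without this library and 1914 to 2217 over the 6 fits that each left out 1 library. Red cell transcripts varied between replicates of both groups. The summed RPM of 17 erythroid genes was 9851, 4348 and 6012 in E9 AoD replicates 1, 2 and 3 and 15910, 3355 and 9524 in those of E9 AoV, replicate 2 being the lowest in both groups.

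Ventral and dorsal tissue differed widely. A gene was called when its limma adjusted p was below 0.05 and its fold change on log2(RPM + 0.1) was at least 1 in size. On this rule 2084 genes were called, 11.8% of those tested, of which 1483 (8.37% of tested) were higher in E9 AoV and 601 (3.39%) were lower. At a log2 fold change of 3 or more in size, 161 genes were higher and 95 were lower. Among the called genes 71.2% were higher in E9 AoV, and 60.3% were after quantile normalization, which called 1167 higher and 768 lower. The RPM ranges of the groups did not overlap for 52.1% of all tested genes and for 2079 of the 2084 called. The 5 exceptions were Clec18a, Mc2r, Mesp1, Tal2 and Wnt3a, named here because of this overlap. The median log2 fold change over all tested genes was 0.013, and the median standard error was 0.101.

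**Figure D1:**
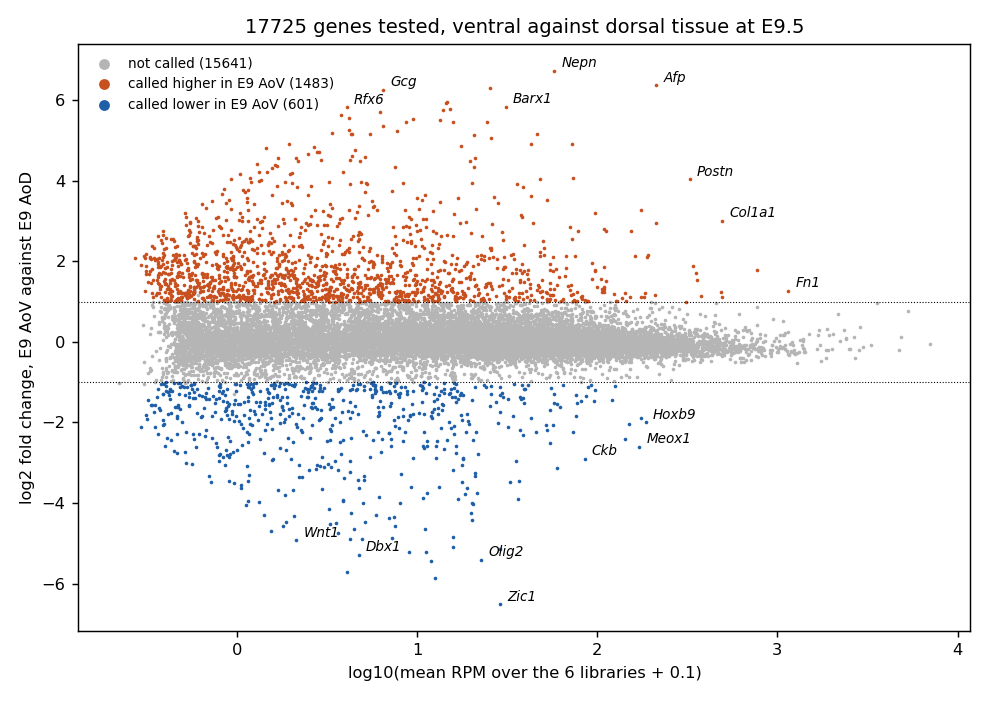
Each point is 1 of the 17725 tested genes, with log10(mean RPM over the 6 libraries + 0.1) on the horizontal axis and the log2 fold change of E9 AoV against E9 AoD on the vertical axis. Orange points are the 1483 genes called higher in E9 AoV, blue points the 601 called lower, grey points the rest, and dotted lines mark a log2 fold change of 1 in size.

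The genes with the steepest ventral bias included genes of the gut tube, the liver bud and the yolk sac, and those with the steepest dorsal bias included several transcription factors of the neural tube. Gcg encodes the precursor of glucagon and of gut hormones made by endocrine cells of pancreas and intestine (ENSMUSG00000000394, NCBIM37 chromosome 2, 62312587 to 62321707, minus strand). It was measured at 0.246, 0.0269 and 0 RPM in E9 AoD and at 12.3, 15.8 and 9.75 RPM in E9 AoV. The difference was 6.25 on the log2 scale (SE 0.436, limma adjusted p = 3.52e-05), and every ventral library lay far above every dorsal one. Rfx6, a transcription factor of endodermal and islet progenitors (ENSMUSG00000019900, chromosome 10, 51397562 to 51450235, plus strand), read 0.123, 0.0269 and 0 RPM dorsally and 8.27, 8.14 and 7.23 RPM ventrally. Its log2 fold change was 5.82 (SE 0.286, limma adjusted p = 9.73e-06), with no overlap and little spread among the ventral libraries. Barx1, a homeobox factor of stomach mesenchyme, rose from 0.959, 3.22 and 0.235 RPM to 63.8, 65.1 and 52.1 RPM (log2 fold change 5.83, SE 0.69, limma adjusted p = 0.000421). Gcg and Rfx6 had dorsal values down to a read or none per library, so the size of their fold depends on the pseudocount. With one of 0.5 or 1 RPM in place of 0.1 RPM it was 4.47 or 3.62 for Gcg and 3.93 or 3.08 for Rfx6, and both were still called.

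On the dorsal side, Neurog2, a proneural factor that starts neuronal differentiation (ENSMUSG00000027967, chromosome 3, 127336054 to 127338549, plus strand), was measured at 21.5, 18.2 and 29.8 RPM in E9 AoD and 0.638, 0.464 and 0.238 RPM in E9 AoV. It was lower ventrally by a log2 fold change of -5.45 (SE 0.296, limma adjusted p = 1.36e-05), and the groups were far apart. Olig2, a factor of the motor neuron progenitor domain (ENSMUSG00000039830, chromosome 16, 91225795 to 91228922, plus strand), read 43.9, 36.8 and 51.4 RPM dorsally against 1.23, 1.11 and 0.57 RPM ventrally (log2 fold change -5.41, SE 0.256, limma adjusted p = 9.1e-06). Prdm8, a zinc finger repressor of the developing nervous system, read 18.3, 17.4 and 29.8 RPM against 0.474, 0.454 and 0.479 RPM (log2 fold change -5.22, SE 0.203, limma adjusted p = 5.89e-06). For these genes the highest dorsal value came from replicate 3, and the lowest dorsal value still exceeded the highest ventral value many times over.

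**Figure D2:**
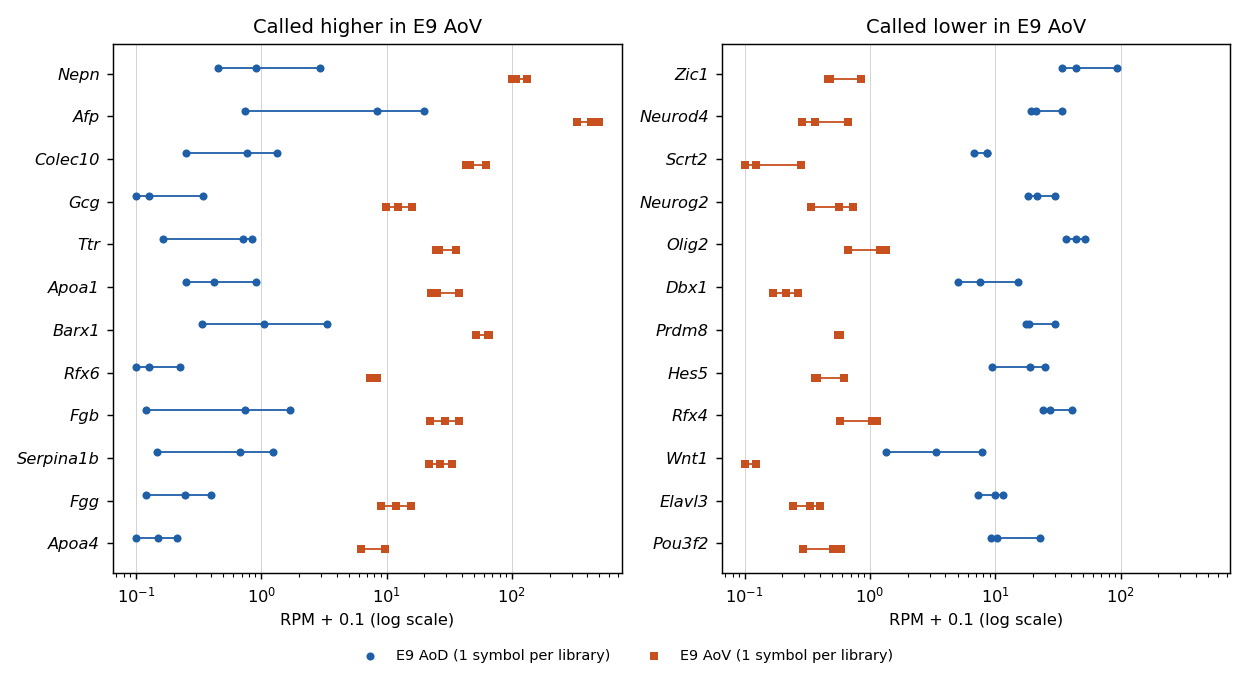
RPM + 0.1 on a log axis in each of the 6 libraries for the 12 genes with the largest change in each direction, left for genes higher in E9 AoV and right for genes lower, with blue circles for E9 AoD, orange squares for E9 AoV and a line over the range of each group. No gene shown has overlapping groups, and E9 AoD spreads more than E9 AoV for Afp, which runs from 0.641 to 19.7 RPM dorsally and from 328 to 491 RPM ventrally.

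Most genes of the neural tube were lower in E9 AoV. Of 13 tested markers of its dorsal side, 11 were lower in E9 AoV and none was called higher (median log2 fold change -3.76), and their summed level was 155.1 to 341.9 RPM in E9 AoD and 13.1 to 22.7 RPM in E9 AoV. Of 10 ventral neural tube markers 9 were lower, of 12 neural progenitor markers 9 were lower, and of 19 genes of neurogenesis and young neurons 18 were lower, with medians of -3.49, -3.36 and -3.33 and no member called higher. Without E9 AoD replicate 3, 1 ventral neural tube marker was called higher. Pax7, a factor of dorsal progenitors and of the dermomyotome, was measured at 7.23, 5.54 and 12.6 RPM in E9 AoD and 0.182, 0.209 and 0.285 RPM in E9 AoV (log2 fold change -4.64, limma adjusted p = 2.4e-05). Sox2, which maintains neural progenitors and is also active in foregut, read 100, 73.3 and 149 RPM dorsally and 12.7, 11.9 and 10.7 RPM ventrally, a gene outside the naming rule that is given here for its level in both tissues. Elavl3, an RNA-binding protein of newborn neurons, fell from 7.21, 9.81 and 11.5 RPM to 0.296, 0.232 and 0.143 RPM (log2 fold change -4.89, limma adjusted p = 9.65e-06). The groups did not overlap for 18 of the 19 genes of neurogenesis in the dorsal direction, the other being Gap43, at 30.0, 33.6 and 31.5 RPM against 36.2, 34.0 and 35.3 RPM (limma adjusted p = 0.101).

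Some neural genes sat together on the chromosome and moved together. Zic1, whose values were 44.3, 34.1 and 93.4 RPM in E9 AoD and 0.365, 0.74 and 0.38 RPM in E9 AoV, lies head to head with Zic4, which read 2.66, 2.09 and 5.72 RPM and 0.0912, 0.0719 and 0 RPM. Their annotated spans on chromosome 9 overlap by 3398 bases on opposite strands, and since the counting is not stated to use strand, reads from that stretch could not be assigned to either gene with certainty. Olig1 and Olig2 lie 41.1 kb apart on chromosome 16. Olig1 was measured at 3.93, 3.36 and 3.76 RPM in E9 AoD and 0.114, 0.255 and 0.238 RPM in E9 AoV (log2 fold change -3.68, limma adjusted p = 2.04e-05). Members that did not pass the rule include Lmx1a, a roof plate factor that read 8.55, 4.76 and 8.77 RPM dorsally and 8.02, 2.97 and 5.75 RPM ventrally, and Sox11, at 387, 340 and 365 RPM against 362, 322 and 298 RPM.

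Neural crest, the migratory population that gives rise to peripheral neurons and glia, was also better represented dorsally. Of its 10 markers 6 were lower in E9 AoV and none was called higher, and the ranges of all 10 lay apart in the dorsal direction. Sox10, the crest and glial factor, was measured at 23.2, 24.7 and 30.2 RPM in E9 AoD and 7.18, 4.83 and 6.13 RPM in E9 AoV (log2 fold change -2.10, limma adjusted p = 4.72e-05). The ventral level of this gene was thus well above the 3-read level, with no overlap of the groups. Erbb3, a neuregulin receptor of crest cells, read 25.5, 24.5 and 28.8 RPM against 17.7, 20.5 and 20.2 RPM, which passed the adjusted p and not the fold threshold (log2 fold change -0.43, limma adjusted p = 0.00673).

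Genes of the notochord and floor plate were either lower in E9 AoV or not called. Ntn1, a guidance molecule of the floor plate that is also made by somites, had the smallest adjusted p of the genes described here, at 228, 242 and 251 RPM in E9 AoD and 44.3, 44.1 and 47.7 RPM in E9 AoV (log2 fold change -2.40, SE 0.0577, limma adjusted p = 1.72e-06). T, the Brachyury factor of the notochord, read 16.6, 14.1 and 15.5 RPM dorsally and 7.77, 3.85 and 5.3 RPM ventrally (log2 fold change -1.49, limma adjusted p = 0.00139). Shh, the ligand secreted by notochord, floor plate and gut endoderm, was measured at 37.5, 43.8 and 34.4 RPM in E9 AoD and 36.1, 51.8 and 38.3 RPM in E9 AoV, with overlapping ranges (log2 fold change 0.11, SE 0.145, limma adjusted p = 0.571). In all 3 of 8 members were called, each of them lower.

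Most somite genes were lower in E9 AoV. Of 13 genes of segmentation and the early somite 9 were lower, of 8 sclerotome genes 6 were lower and 1 higher, and of 13 dermomyotome and myotome genes 9 were lower and 1 higher. Meox1, a homeobox factor of the early somite (ENSMUSG00000001493, chromosome 11, 101738824 to 101755688, minus strand), read 306, 306 and 270 RPM in E9 AoD and 57.3, 40.6 and 47.1 RPM in E9 AoV, the largest mean difference in RPM of any gene called lower. Its log2 fold change was -2.61 (SE 0.119, limma adjusted p = 8.3e-06). Pax1, a factor of the sclerotome from which vertebrae form, was measured at 67.3, 65.4 and 69.9 RPM against 6.04, 4.59 and 3.07 RPM (log2 fold change -3.91, limma adjusted p = 1.24e-05). Myog, the muscle regulatory factor of the myotome, fell from 14.9, 14.0 and 13.4 RPM to 0.889, 0.441 and 0.523 RPM (log2 fold change -4.35, limma adjusted p = 1.01e-05). In each of these genes the 3 dorsal libraries lay close together and above every ventral one.

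The member of these lists that was higher ventrally among sclerotome genes was Nkx3-2, also called Bapx1, which is expressed in gut mesenchyme as well. It was measured at 2.46, 3.04 and 2.84 RPM in E9 AoD and 6.97, 8.35 and 7.37 RPM in E9 AoV (log2 fold change 1.41, limma adjusted p = 9.55e-05). Actc1, cardiac alpha actin, which skeletal and heart muscle share, was the corresponding member of the myotome list, at 40.6, 44.7 and 32.0 RPM against 109, 89.7 and 114 RPM, and is named because it was the lone exception. Tbx18 had overlapping ranges, at 15.4, 21.0 and 14.8 RPM and 16.1, 17.6 and 16.1 RPM (limma adjusted p = 0.909). Other axial products with high RPM moved with the somite genes, among them Col2a1, the cartilage and notochord sheath collagen, which read 250, 244 and 230 RPM dorsally and 65.4, 52.4 and 57.8 RPM ventrally (log2 fold change -2.05, limma adjusted p = 6.45e-06).

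**Figure D3:**
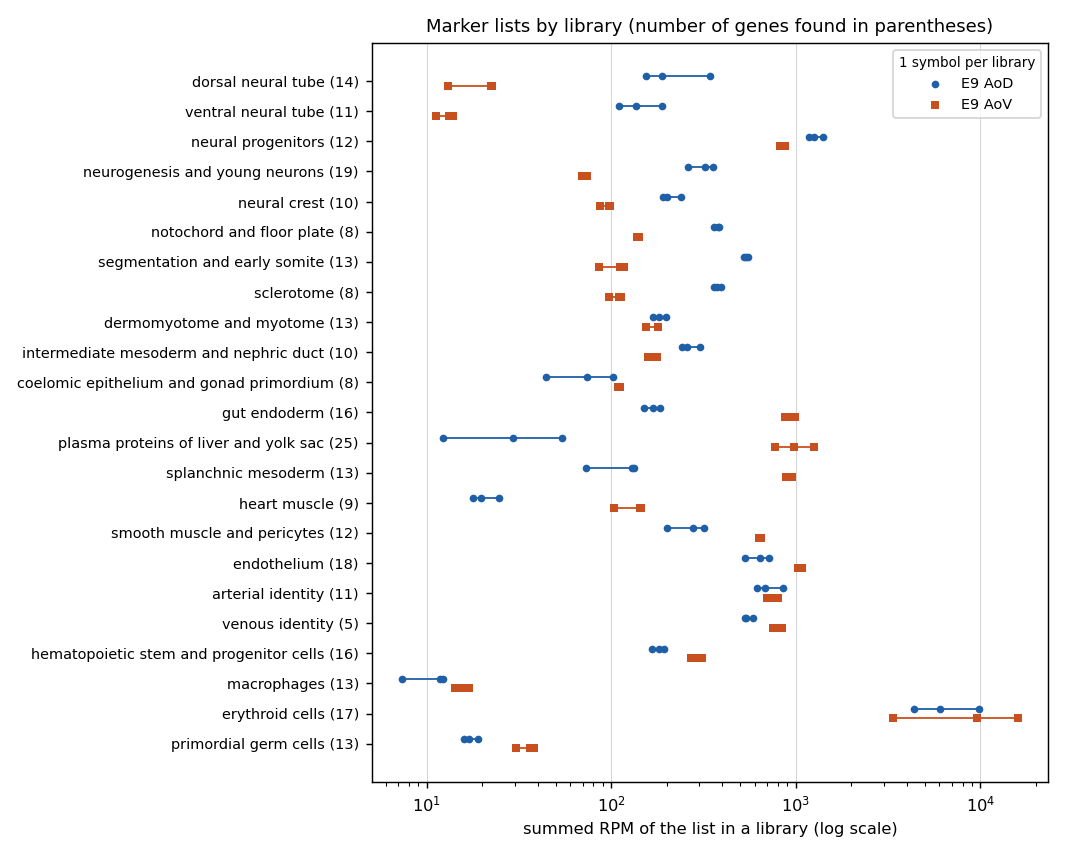
Summed RPM of each marker list in each of the 6 libraries on a log axis, with blue circles for E9 AoD, orange squares for E9 AoV and a line over the range of each group. Neural, early somite and sclerotome lists lie to the right in E9 AoD, the dermomyotome and myotome list overlaps between the groups, gut, plasma protein, splanchnic and heart lists to the right in E9 AoV, and the erythroid list spreads over both groups.

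Most gut endoderm genes were higher on the ventral side. Of 16 gut endoderm markers 12 were higher in E9 AoV and none was called lower (median log2 fold change 2.08), and their summed level was 149.7 to 183.9 RPM in E9 AoD and 873.5 to 993.4 RPM in E9 AoV. Hnf4a, a nuclear receptor of liver and intestine, read 0.442, 1.02 and 0 RPM dorsally and 17.0, 23.0 and 14.9 RPM ventrally (log2 fold change 5.52, limma adjusted p = 0.000869). Krt8, a keratin of simple epithelia, was measured at 43.0, 30.6 and 26.1 RPM and 309, 323 and 320 RPM (log2 fold change 3.28, limma adjusted p = 9.49e-06). Foxa2, which endoderm shares with notochord and floor plate, was at 11.1, 11.5 and 10.6 RPM in E9 AoD and 11.4, 11.6 and 9.39 RPM in E9 AoV, with overlapping ranges (log2 fold change -0.04, limma adjusted p = 0.783). Foxa1 and Foxa3, its relatives in endoderm, were higher ventrally by 3.44 and 4.55 on the log2 scale (limma adjusted p = 7.13e-06 and 1.37e-05).

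Plasma protein genes of the embryonic liver and yolk sac had the largest median of the lists, 5.19 on the log2 scale. All 23 tested members were higher in E9 AoV with ranges apart, and their summed level was 29.5, 54.1 and 12.3 RPM in E9 AoD and 974, 1252 and 773 RPM in E9 AoV. The remaining members, Ahsg and Apoh, did not reach 0.5 RPM in any library. Some tested members, such as Fgg and Apoa4, reached it in E9 AoV alone, so the filter partly set their direction. Apoa1, the main apolipoprotein of high density lipoprotein (ENSMUSG00000032083, chromosome 9, 46036663 to 46038549, plus strand), read 0.32, 0.806 and 0.15 RPM dorsally and 25.0, 37.8 and 22.5 RPM ventrally (log2 fold change 5.93, limma adjusted p = 4.04e-05). Fgb, a chain of fibrinogen, read 0.639, 1.61 and 0.0214 RPM and 29.3, 37.5 and 22.3 RPM (log2 fold change 5.77, limma adjusted p = 0.00109). Among the dorsal libraries replicate 2 was the highest and replicate 3 the lowest for both genes and for the sum, and the ventral libraries kept the order of 2, 1 and 3. Serpina1b, an antitrypsin, was called as well (log2 fold change 5.76), although near-identical Serpina1 copies share reads that the authors divided between them.

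Several of these genes are neighbours. Fgg, Fga and Fgb lie within a stretch of chromosome 3, with 11.1 kb between Fgg and Fga and 8.13 kb between Fga and Fgb, and encode the chains of fibrinogen. Afp and Alb lie 14.1 kb apart on chromosome 5, and Apoa1 and Apoa4 10.2 kb apart on chromosome 9. Alb, serum albumin, chosen here after its values were seen, read 0.516, 1.85 and 0.0428 RPM in E9 AoD and 27.6, 31.6 and 18.5 RPM in E9 AoV (log2 fold change 5.51, limma adjusted p = 0.00119).

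The promoters of these genes are shown because they moved together and because binding sites of HNF1 factors are a textbook feature of liver promoters. The RefSeq table for GRCm38.p6 held promoters of 20 of the 23 tested genes. The letters GTTAAT, part of the HNF1 motif, were present on either strand in the 250 bases before the start of 7 of them (Afp, Alb, Apoc2, Fga, Fgb, Serpina1a and Serpina1b), which is 35% against 7.49% of the 27025 genes with a promoter in the table. A match is a description of these letters and not of binding. The 250 bases before the start are given 5′ to 3′ on the strand of the gene, with GTTAAT or its reverse complement ATTAAC in capitals, for Afp (chr5:90490464-90490713, plus strand), Alb (chr5:90460620-90460869, plus strand) and Fgb (chr3:83049864-83050113, minus strand).
Afp: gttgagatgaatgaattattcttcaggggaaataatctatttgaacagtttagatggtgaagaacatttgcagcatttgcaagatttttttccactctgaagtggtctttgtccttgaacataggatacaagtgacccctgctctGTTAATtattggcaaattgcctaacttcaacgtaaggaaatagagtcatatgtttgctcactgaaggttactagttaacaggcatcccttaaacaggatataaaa
Alb: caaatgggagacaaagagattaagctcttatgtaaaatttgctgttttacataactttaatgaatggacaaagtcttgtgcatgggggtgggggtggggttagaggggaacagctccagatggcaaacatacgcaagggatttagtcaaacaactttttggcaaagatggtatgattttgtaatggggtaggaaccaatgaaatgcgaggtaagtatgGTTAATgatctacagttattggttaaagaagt
Fgb: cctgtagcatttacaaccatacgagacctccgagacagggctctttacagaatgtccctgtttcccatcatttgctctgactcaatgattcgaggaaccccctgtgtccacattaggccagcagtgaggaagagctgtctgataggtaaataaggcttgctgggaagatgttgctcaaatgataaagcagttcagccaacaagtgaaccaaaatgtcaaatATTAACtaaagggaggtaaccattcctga

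Splanchnic mesoderm, the mesenchyme around the gut, was ventral throughout. All 13 markers were higher in E9 AoV with ranges apart (median log2 fold change 3.30), and their sum was 72.6 to 132.4 RPM in E9 AoD and 880.4 to 958.5 RPM in E9 AoV. Hand1, a factor of lateral mesoderm and heart, read 14.7, 8.36 and 4.17 RPM against 132, 140 and 138 RPM (log2 fold change 4.07, limma adjusted p = 0.000122). Foxf1a, a target of Hedgehog signalling in gut mesenchyme, read 5.3, 5.4 and 2.82 RPM against 61.7, 76.4 and 64.0 RPM (log2 fold change 3.92, limma adjusted p = 1.92e-05). Gata4, a zinc finger factor of heart, gut and gonad, read 11.2, 14.0 and 3.44 RPM against 92.8, 103 and 91.1 RPM (log2 fold change 3.53, limma adjusted p = 0.000587). The ventral libraries lay close together in these genes, and replicate 3 gave the lowest dorsal value of each.

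Genes of contractile and matrix-producing cells followed. All 8 tested heart muscle genes were higher in E9 AoV, with a summed level of 17.8 to 24.7 RPM in E9 AoD and 103 to 144.7 RPM in E9 AoV. Nkx2-5 reached 0.5 RPM in E9 AoV alone, so the filter partly set its direction. Myh6, the alpha myosin heavy chain of atrial muscle, read 0.613, 2.26 and 0.699 RPM against 44.5, 26.1 and 48.8 RPM (log2 fold change 5.13, limma adjusted p = 9.75e-05). Of 12 smooth muscle and pericyte genes 7 were higher and none was called lower, among them Acta2, smooth muscle actin, at 48.1, 49.4 and 26.6 RPM against 280, 259 and 265 RPM (log2 fold change 2.75, limma adjusted p = 5.47e-05). Pdgfrb, the receptor that marks pericytes and other mesenchyme, was not called, at 95.5, 116 and 86.8 RPM and 82.4, 90.1 and 88.9 RPM. Several matrix genes were among the called genes with the largest mean difference in RPM. Col1a1, fibrillar collagen, rose from 124, 142 and 71.0 RPM to 857, 845 and 913 RPM (log2 fold change 3.01, limma adjusted p = 4.39e-05), and Postn, a matricellular protein, from 50.3, 45.3 and 22.7 RPM to 580, 616 and 640 RPM (log2 fold change 4.03, limma adjusted p = 2.66e-05). Fn1, fibronectin, rose from 623, 821 and 588 RPM to 1440, 1890 and 1540 RPM, a smaller fold change (1.27, limma adjusted p = 0.000317) without overlap.

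Endothelial genes were higher ventrally, mostly by less than the fold threshold. The markers were present on both sides. Of 18 endothelial genes 1 was called higher and none lower, a share near the 8.37% called higher over all tested genes. All 18 passed the adjusted p, and all 18 had ranges apart in the ventral direction. Over all tested genes the ranges were apart for 52.1%, in either direction. The median log2 fold change of the list was 0.64. The summed level of the list was 532.8 to 712.3 RPM in E9 AoD and 1024 to 1080 RPM in E9 AoV. Kdr, the main receptor for VEGF, read 87.4, 105 and 83.4 RPM dorsally and 156, 177 and 156 RPM ventrally (log2 fold change 0.83, SE 0.0942, limma adjusted p = 0.000343), below the fold threshold. Tek, the angiopoietin receptor, passed it at 26.5, 29.9 and 19.7 RPM against 69.7, 74.9 and 74.8 RPM (log2 fold change 1.54, limma adjusted p = 0.00011). Angpt2, a ligand of Tek, was higher too, at 3.29, 3.76 and 2.2 RPM against 15.1, 18.5 and 15.0 RPM (log2 fold change 2.38, limma adjusted p = 6.65e-05).

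Arterial and venous genes gave 1 call among 11 and none among 5. These lists are too small to set apart from the 11.8% called over all tested genes. Of 11 arterial genes Unc5b was called higher, at 68.6, 72.6 and 49.5 RPM against 147, 158 and 159 RPM (log2 fold change 1.30, limma adjusted p = 0.000202), and none was called lower, while 2 were called higher without E9 AoD replicate 2. Jag1, a Notch ligand of arterial endothelium, and Hey1, a Notch target, had their higher values dorsally, with log2 fold changes of -0.57 and -0.55 that passed the adjusted p and not the fold threshold (limma adjusted p = 0.00193 and 0.00674). Efnb2 and Gja5 passed it in the ventral direction, at 0.505 and 0.649 (limma adjusted p = 0.0018 and 0.0405), also below the fold threshold. Of the 11 genes 6 had ranges apart in the ventral direction and 3 in the dorsal direction. Of 5 venous genes limma called none, although 4 passed the adjusted p alone and 4 passed an unadjusted p of 0.05. Nrp2 came closest to the fold threshold, at 171, 183 and 194 RPM and 291, 386 and 329 RPM (log2 fold change 0.87, limma adjusted p = 0.00038).

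Some genes of emerging blood cells were higher ventrally. Of 16 markers of hematopoietic stem and progenitor cells 6 were higher in E9 AoV and none was called lower (median log2 fold change 0.92). Runx1, the factor required for blood cells to leave the endothelium, was measured at 3.17, 4.3 and 2.78 RPM in E9 AoD and 8.09, 9.25 and 8.29 RPM in E9 AoV (log2 fold change 1.32, SE 0.162, limma adjusted p = 0.000505). Gfi1, a repressor that acts below Runx1 in this transition, read 0.541, 0.591 and 0.235 RPM against 3.08, 4.01 and 2.78 RPM (log2 fold change 2.66, limma adjusted p = 0.000292). Kit, the receptor for stem cell factor, read 19.8, 22.0 and 20.4 RPM against 57.4, 69.1 and 57.9 RPM (log2 fold change 1.56, limma adjusted p = 1.46e-05). No range overlapped in these 3 genes. Gata2 (log2 fold change 1.05) was not called without E9 AoD replicate 3, where it was 0.83.

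Lmo2 and Tal1 did not separate the sides. Lmo2 read 23.2, 21.8 and 23.3 RPM against 25.5, 20.3 and 25.2 RPM, with overlapping ranges (limma adjusted p = 0.727). Tal1, which red cells express as well, read 30.9, 21.3 and 22.7 RPM against 48.8, 21.8 and 37.7 RPM (limma adjusted p = 0.214), its lowest values falling in the replicates with the least erythroid RNA. Limma called none of the 17 erythroid genes, of which 0 had an unadjusted p below 0.05, and called 2 of them higher without E9 AoV replicate 2. Of 9 macrophage genes 3 were higher, from a summed level of 7.39 to 12.3 RPM in E9 AoD and 14.2 to 16.9 RPM in E9 AoV.

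Secreted signals that act on HSC precursors were examined by role. BMPs are ligands of the TGF-beta family that pattern the ventral mesoderm and gut, are held back by extracellular antagonists, and switch on SMAD target genes. Of 11 ligands 6 were higher in E9 AoV and 1 lower. Bmp4, the ligand of the ventral aortic mesenchyme, was measured at 26.9, 35.2 and 19.7 RPM in E9 AoD and 63.6, 69.0 and 70.6 RPM in E9 AoV (log2 fold change 1.35, SE 0.182, limma adjusted p = 0.000806). Gdf6 read 3.32, 4.46 and 2.27 RPM against 19.6, 25.6 and 20.4 RPM (log2 fold change 2.71, limma adjusted p = 7.64e-05), and Gdf2, also known as BMP9, 0.246, 0.161 and 0 RPM against 5.11, 6.28 and 4.68 RPM (log2 fold change 4.70, limma adjusted p = 0.00011). Bmp3 went the other way, at 4.23, 5.16 and 6.97 RPM against 1.39, 1.32 and 1.38 RPM (log2 fold change -1.89, limma adjusted p = 0.00015). Gdf7 read 0.32, 0.161 and 0.855 RPM against 0.16, 0.0928 and 0.143 RPM (log2 fold change -1.03, limma adjusted p = 0.102) and was called lower with the replicate block. Without E9 AoD replicate 2 the ligands called lower were 2.

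Limma called none of 7 BMP receptors, of which 3 had an unadjusted and 1 an adjusted p below 0.05. Bmpr1a read 168, 207 and 199 RPM against 178, 224 and 217 RPM (limma adjusted p = 0.466). Of 10 target genes 4 were higher and none was called lower. Msx2, a homeobox target, was measured at 9.93, 5.59 and 7.89 RPM in E9 AoD and 29.3, 26.7 and 29.4 RPM in E9 AoV (log2 fold change 1.89, limma adjusted p = 0.000161), Bambi, a decoy receptor, at 35.0, 37.2 and 25.3 RPM against 95.4, 102 and 101 RPM (1.63, limma adjusted p = 6.89e-05), and Smad6, the inhibitory SMAD, at 25.0, 27.7 and 18.9 RPM against 56.1, 60.0 and 54.2 RPM (1.26, limma adjusted p = 0.00022). The early targets Id1, Id2 and Id3 were not called, Id1 at 97.1, 56.3 and 50.1 RPM against 103, 59.6 and 67.0 RPM with overlapping ranges. Id2 passed the adjusted p and not the fold threshold, at 164, 156 and 129 RPM against 235, 232 and 214 RPM (0.61, limma adjusted p = 0.00135). Of the 10 targets 7 passed the adjusted p, and 7 had ranges apart in the ventral direction.

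Antagonists and modulators, listed together, were divided, with 4 of 23 higher and 4 lower. The higher members include the protease Tll1, which is not an antagonist (log2 fold change 1.6, limma adjusted p = 0.000189). Smoc2, a matrix modulator, rose from 9.78, 9.83 and 5.88 RPM to 39.7, 43.1 and 43.8 RPM (log2 fold change 2.34, limma adjusted p = 6.16e-05). Fst, follistatin, fell from 25.6, 20.4 and 27.3 RPM to 10.3, 7.84 and 8.98 RPM (-1.42, limma adjusted p = 0.000151). Bmper, an extracellular BMP modulator and a candidate that the study chose on these libraries, read 11.6, 14.9 and 7.14 RPM in E9 AoD and 6.86, 8.12 and 7.68 RPM in E9 AoV, with overlapping ranges at this stage.

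**Figure D4:**
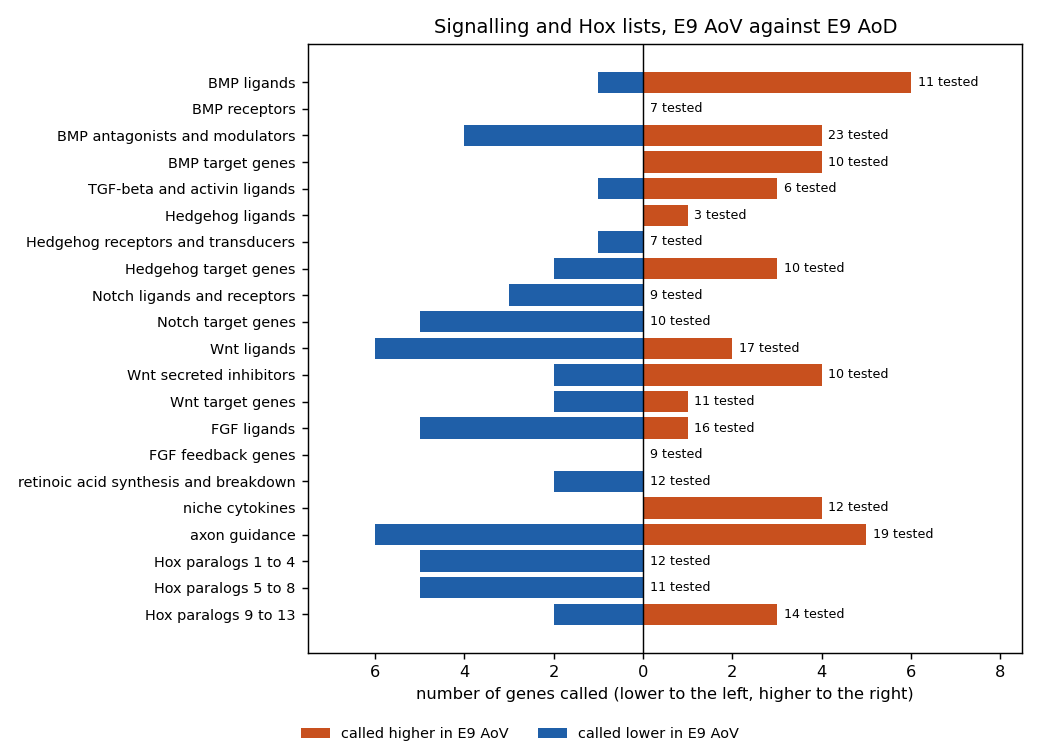
Number of genes called higher (orange, to the right) and lower (blue, to the left) in E9 AoV in each signalling and Hox list, with the number tested beside each bar. BMP ligands (6 higher, 1 lower) and niche cytokines (4 higher) lean to the right, and Notch targets (5 lower) and Wnt ligands (2 higher, 6 lower) to the left.

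Hedgehog ligands bind Ptch1, which releases Smo and the Gli factors, and Ptch1 and Gli1 are themselves targets. Ihh, the ligand of gut endoderm, rose from 0.295, 0.242 and 0.235 RPM to 7.43, 9.51 and 7.23 RPM (log2 fold change 4.51, SE 0.161, limma adjusted p = 5.89e-06), while Shh was not called. The general targets were not called, with Ptch1 at 235, 252 and 253 RPM against 281, 373 and 316 RPM (log2 fold change 0.38, limma adjusted p = 0.016) and Gli1 at 86.1, 76.4 and 82.0 RPM against 97.1, 95.8 and 84.7 RPM (0.18, limma adjusted p = 0.0796). Targets particular to a tissue went opposite ways. The gut mesenchyme targets Foxf1a and Foxf2 were higher, and the sclerotome target Pax1 and the neural tube target Nkx2-2 lower (3 of 10 targets higher, 2 lower). Boc, a coreceptor, was the member called among 7 receptors and transducers, at 49.4, 51.4 and 61.1 RPM against 22.2, 24.3 and 25.3 RPM (log2 fold change -1.17, limma adjusted p = 6.2e-05).

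Several Notch genes were lower on the ventral side. Receptors of this pathway are cut on contact with Delta or Jagged ligands and act with RBPJ on targets of the Hes and Hey families, and the pathway serves somite segmentation, neurogenesis and arterial fate. Of 9 ligands and receptors 3 were lower and none was called higher, and of 10 targets 5 were lower and none was called higher. Among those called, Dll1, Dll3, Lfng and Hes7 are also in the segmentation list above, and Hes5 in the neural progenitor list. Notch1 was measured at 159, 185 and 187 RPM in E9 AoD and 60.0, 67.5 and 66.8 RPM in E9 AoV (log2 fold change -1.45, SE 0.0788, limma adjusted p = 1.36e-05). Dll1 read 54.2, 64.4 and 72.5 RPM against 12.5, 9.3 and 17.5 RPM (-2.31, limma adjusted p = 0.000123), while Dll4, the arterial ligand, named after its values were seen, read 13.1, 14.8 and 11.7 RPM against 15.9, 16.4 and 16.8 RPM (0.31, limma adjusted p = 0.0332). Hes5, the target of neural progenitors, read 18.8, 9.24 and 24.6 RPM against 0.524, 0.278 and 0.261 RPM (-5.21, limma adjusted p = 3.57e-05), and Lfng, which modifies Notch and oscillates in the presomitic mesoderm, 17.3, 19.2 and 28.9 RPM against 2.76, 3.22 and 4.63 RPM (-2.59, limma adjusted p = 0.000116). Hes1, a target in most tissues, had overlapping ranges, at 33.9, 29.0 and 32.3 RPM against 33.3, 29.2 and 29.2 RPM (limma adjusted p = 0.649).

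The promoters of Hes5 and Lfng are shown as examples of called genes whose promoter holds the letters GTGGGAA, the core bound by RBPJ. On either strand (TTCCCAC on the other), 6.18% of the 27025 genes in the table hold these letters. The table held promoters of 6 of the 10 tested targets, too few for a share over the list. The letters are also held by Hes7, which was called lower, and by Hey2, which was not called. Those promoters are not shown. The 250 bases before the start of Hes5 (GRCm38.p6, chr4:154960673-154960922, plus strand), with 2 matches in capitals, and of Lfng (chr5:140607091-140607340, plus strand), with 1, read 5′ to 3′ as follows.
Hes5: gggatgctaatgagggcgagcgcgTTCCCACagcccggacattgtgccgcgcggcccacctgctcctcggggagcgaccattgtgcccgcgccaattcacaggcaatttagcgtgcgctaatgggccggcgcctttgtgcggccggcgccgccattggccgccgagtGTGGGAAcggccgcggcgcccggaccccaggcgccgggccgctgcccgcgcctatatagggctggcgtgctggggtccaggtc
Lfng: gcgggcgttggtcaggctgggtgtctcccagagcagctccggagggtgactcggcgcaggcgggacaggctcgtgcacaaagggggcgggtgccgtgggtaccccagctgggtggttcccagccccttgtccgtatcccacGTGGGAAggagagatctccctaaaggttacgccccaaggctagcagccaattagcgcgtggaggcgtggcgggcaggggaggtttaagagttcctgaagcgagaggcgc
In Hes5 the matches begin 226 and 83 bases before the start, on opposite strands.

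Wnt ligands were divided. Of 17 tested 2 were higher in E9 AoV and 6 lower. Wnt2, a ligand of foregut and lung mesenchyme, read 11.8, 9.16 and 6.11 RPM against 55.5, 46.9 and 50 RPM (log2 fold change 2.53, limma adjusted p = 7.54e-05), and Wnt2b, its close relative, 3.74, 5.72 and 2.86 RPM against 11.4, 16 and 14.3 RPM (1.78, limma adjusted p = 0.000814). Wnt1, the roof plate ligand, had 3.24, 1.24 and 7.74 RPM in E9 AoD and 0, 0.0232 and 0 RPM in E9 AoV, the latter a read or none per library, so no fold is given for it. Wnt16 read 13.2, 16.3 and 20.5 RPM against 1.66, 2.34 and 2.45 RPM (-2.89, limma adjusted p = 3.11e-05). Wnt3a, at 2.53, 0.591 and 4.9 RPM against 0.638, 0.0232 and 0.119 RPM, lost its call without any of E9 AoD replicate 1, E9 AoD replicate 3, E9 AoV replicate 2 or E9 AoV replicate 3. Of 10 secreted inhibitors 4 were higher and 2 lower, led by Sfrp5, a foregut gene, at 1.97, 1.91 and 1.5 RPM against 16.8, 16.5 and 14.9 RPM (3.10, limma adjusted p = 6.67e-06). The general targets Axin2 and Lef1 had their higher values dorsally and were not called, Axin2 at 49.4, 52.5 and 67.4 RPM against 32.3, 33.6 and 36.8 RPM (-0.71, limma adjusted p = 0.00214).

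Among cytokines with known effects on blood precursors, 4 of 12 were higher in E9 AoV and none was called lower, and 2 were higher with a pseudocount of 1 RPM. Kitl, stem cell factor, was measured at 54.4, 70.7 and 52.9 RPM in E9 AoD and 104, 133 and 120 RPM in E9 AoV with ranges apart. Its log2 fold change of 1.01 (limma adjusted p = 0.000595) sat on the threshold and fell below it without E9 AoD replicate 1, E9 AoD replicate 3, E9 AoV replicate 2 or E9 AoV replicate 3, at 0.95, 0.93, 0.92 and just below 1. Igf2, an imprinted growth factor, read 2430, 2880 and 1970 RPM against 4470, 4870 and 4690 RPM (log2 fold change 0.96, limma adjusted p = 0.000648), and 1.09 without E9 AoD replicate 2, which was then called.

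Position along the body axis was read from Hox genes, which are switched on in the order of their clusters from anterior to posterior. The called genes of anterior and middle groups were lower ventrally, with 5 of 12 genes of paralogs 1 to 4 and 5 of 11 genes of paralogs 5 to 8 called lower and none called higher. The first of these counts was 2 without E9 AoV replicate 2. Among 14 genes of paralogs 9 to 13, 3 were higher and 2 lower. Hoxb9 fell from 303, 271 and 320 RPM to 79.4, 69.3 and 74.2 RPM (log2 fold change -2.0, limma adjusted p = 5.89e-06). Hoxd13 rose from 9.81, 16.2 and 8.7 RPM to 39.0, 53.9 and 54.5 RPM (2.11, limma adjusted p = 0.00029) and Hoxa13 from 0.442, 0.725 and 0.278 RPM to 3.49, 6.59 and 5.82 RPM (3.24, limma adjusted p = 0.000195). The most posterior genes thus moved opposite to Hoxb9, with ranges apart in each, and both are known in hindgut as well as in the tail. Cdx2, a factor of tail bud and hindgut, moved with them, at 8.87, 4.94 and 10.3 RPM against 26.5, 27.4 and 26.1 RPM (1.78, limma adjusted p = 0.000753), whereas Nkx1-2, a marker of caudal neural progenitors, fell from 5.25, 3.38 and 7.18 RPM to 0.985, 0.682 and 0.835 RPM (-2.47, limma adjusted p = 0.000268).

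Tissue lists and signal lists share this contrast, so the neural, early somite and sclerotome sums are higher in E9 AoD, and the gut, plasma protein, splanchnic and heart sums higher in E9 AoV, beside each signal that moved in the same direction. Some genes stand in lists of both kinds, among them Dll1, Dll3, Lfng, Hes5, Hes7, Foxf1a, Foxf2, Pax1, Wnt1 and Wnt2. Their calls are counted in both. How much of any signalling difference came with these tissues was not tested.

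The contrast at E9.5 was then set against that at E10.5 by the difference of both log2 fold changes in a fit of the 12 aorta libraries. Of 18402 genes tested in it, 1989 (10.8%) were called. Of the 1483 genes higher in E9 AoV, 482 had the same call at E10.5, 64 the opposite call and 937 no call, and the stage difference itself was called for 806. Of the 601 genes lower in E9 AoV, 313 had the same call at E10.5, 19 the opposite call and 269 no call, with the stage difference called for 265. In 742 of the 806 and 232 of the 265 the value at E10.5 was smaller or opposite. These genes were picked by their call at E9.5, which by itself favours a smaller value at E10.5. Genes polar at E10.5 only do not enter these counts, so the counts do not show whether polarity fell with stage.

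The stage difference was called for all 23 tested members of the plasma protein list. Apoa1 stood at 0.189 ± 0.0312 RPM in E10 AoD and 0.183 ± 0.142 RPM in E10 AoV (SD, n = 3), against 0.425 ± 0.34 and 28.4 ± 8.21 RPM at E9.5. Some members were below the pseudocount of 0.1 RPM in both E10.5 groups, such as Fgg (means 0.0415 and 0.0491 RPM) and Apoa4 (0.0164 and 0.00777 RPM). For these the pseudocount holds the E10.5 contrast near 0, and no polarity was measured at that stage. The stage difference was called for 5 of 13 dorsal and 9 of 10 ventral neural tube genes, among them Olig2 (-1.93, limma adjusted p = 0.0137). Olig2 stood at 44.0 ± 7.3 RPM in E9 AoD and 1.81 ± 0.973 RPM in E10 AoD (SD, n = 3). In E10 AoV it stood at 0.0587 ± 0.0406 RPM (SD, n = 3), below the pseudocount of 0.1 RPM. The size of its stage difference thus depends on the pseudocount. In the somite lists the stage difference was called for 2 of 13 segmentation genes and 6 of 8 sclerotome genes. Uncx had a log2 fold change of -3.26 at E9.5 and -3.29 at E10.5, a stage difference of 0.03 (SE 0.257, limma adjusted p = 0.954), and Pax1 went from -3.91 to -5.92 (stage difference 2.02, limma adjusted p = 0.000196). Shh, with overlapping ranges at E9.5, stood at 117 RPM in E10 AoD and 1.7 RPM in E10 AoV (mean, n = 3), the stage difference being 6.15 (SE 0.191, limma adjusted p = 2.74e-09).

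Among 10 BMP target genes limma called no stage difference, a list too small to set apart from the 10.8% called over all genes. An unadjusted p below 0.05 was found for 4 of them and an adjusted one for 3. Id3 was among these 3, with a stage difference of -0.55 (limma adjusted p = 0.0096) that missed the fold threshold. For Bambi the log2 fold change was 1.63 at E9.5 and 1.58 at E10.5, a difference of 0.05 (SE 0.161, limma adjusted p = 0.878). Bmp4 differed by -0.33 between stages (SE 0.218, limma adjusted p = 0.309). The ventral bias was larger at E10.5 for Gdf6, from 2.71 to 4.32, a stage difference of -1.61 (limma adjusted p = 0.000653), and for Kitl, from 1.01 to 2.48 (-1.48, limma adjusted p = 1.73e-05). Of 7 tested coelomic and gonad genes 2 were higher and 1 lower at E9.5 (2 lower without E9 AoD replicate 3), and the stage difference was called for all 7, each with a negative value, which means a larger ventral or smaller dorsal bias at E10.5. Of 10 genes of intermediate mesoderm and nephric duct 4 were lower at E9.5, among them Pax2 (5.48, 8.49 and 3.68 RPM against 2.71, 2.06 and 2.42 RPM), and 1 was lower with 2 higher when E9 AoD replicate 2, which holds the highest value of each such gene but Sall1, was left out.

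**Figure D5:**
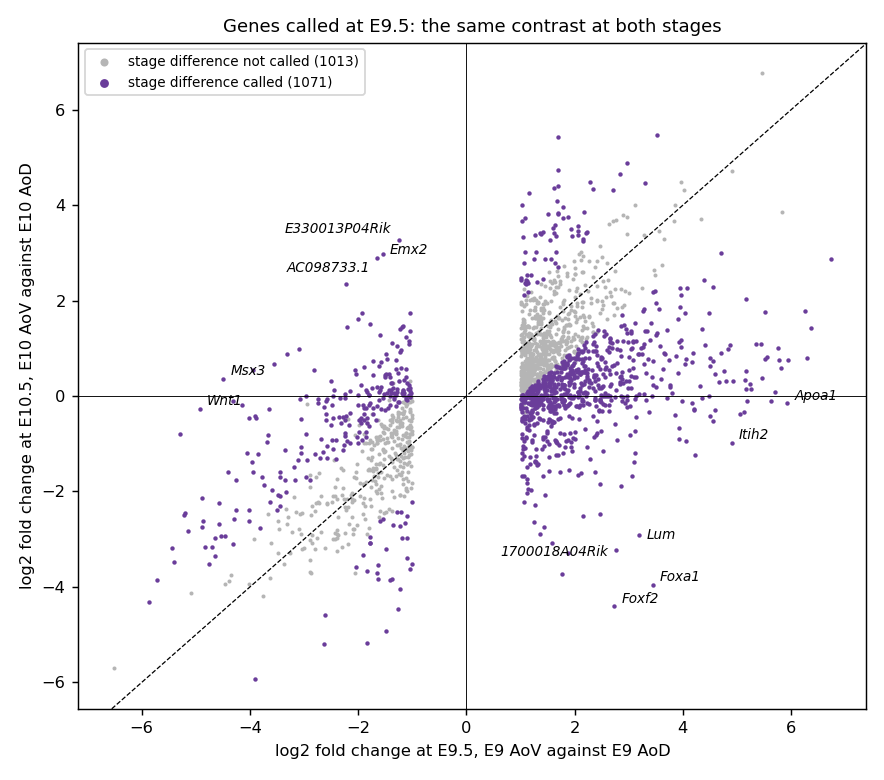
Each point is 1 of the 2084 genes called at E9.5, with the log2 fold change of E9 AoV against E9 AoD on the horizontal axis and that of E10 AoV against E10 AoD on the vertical axis. Purple points are the 1071 genes whose stage difference was called, grey points the other 1013, and the dashed line marks equal values, below which Foxa1 and Foxf2 reverse from ventral to dorsal.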

How the data were processed

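RNA-seq libraries of dissected and pooled AGM subdomains were used as the deposited table of RPM values per Ensembl gene. According to the methods, the authors aligned reads with TopHat and Bowtie to NCBIM37, counted them per gene in GeneProf with reads that matched several genes divided between them, and scaled the counts to RPM (reads per M gene-assigned reads). The submitters' processing notes name Bowtie 0.12.3 and DESeq. Whether counting used strand is not given in the sources used here. The table also holds the authors' own log2 fold changes and adjusted p-values for their comparisons, which were not used. Since only 69.6% to 71.3% of low values were whole multiples of the RPM of 1 read, whole counts were not recovered and no count model was fitted.

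Genes with at least 0.5 RPM in 1 or more of the 6 libraries were tested on log2(RPM + 0.1) with limma 3.58.1 (R 4.3.3, moderated with a trend), with Benjamini-Hochberg adjustment over all tested genes. A call needed an adjusted p below 0.05 and a log2 fold change of 1 or more in size. A pseudocount lowers the fold change of genes near 0. A gene that reached 0.5 RPM in 1 group alone was tested through that group, which partly sets its direction in the list counts. The difference between stages was fitted over the 12 aorta libraries of E9.5 and E10.5. Grouping followed the sample labels. Same-numbered libraries deviated together from their group means (r = 0.49, 0.38 and 0.213 over genes, against -0.373 to -0.026 for other pairs), so the numbers, taken from the labels, were treated as pairing the samples in a fit with a replicate block. No pair of libraries agreed within sampling noise. The fitting procedure was tested on simulated data.

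Members and gene lists were chosen with earlier results of these data known. The genes named were taken from the 12 called in each direction with the largest fold change (ranges apart, at least 1 RPM in the higher group, no clone names), the 6 called in each direction with the largest difference in mean RPM, the 6 in each direction with the largest stage difference (called at E9.5, at least 1 RPM in the higher group), and in each list up to 6 called and up to 3 not called members, or all members of lists of at most 5. The text prints examples of these, and exceptions are marked in it. Alternatives were other pseudocounts, filters, scalings and fits, and leaving out each library. Gene positions are on NCBIM37, where 97.5% of tested identifiers were found, and promoters are from RefSeq on GRCm38.p6. A further 3 genes of this choice are not reported here.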

Additional observations from a re-analysis of the deposited data

Results flagged for a closer look

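Among genes called at E9.5 with at least 1 RPM in the higher group, these 11 were among the 12 (6 in each direction) with the largest difference between the contrast at E9.5 and that at E10.5, each tested as an interaction with limma. Foxa1, an endodermal and floor plate factor, led with 7.40 on the log2 scale (adjusted p = 3.93e-09), since it stood at 11.1 ± 1.83 RPM in E10 AoD and 0.621 ± 0.15 RPM in E10 AoV (SD, n = 3) after the opposite order at E9.5. Foxf2 differed by 7.14 (adjusted p = 1.45e-09), with 88.7 ± 12.7 RPM in E10 AoD and 4.05 ± 0.161 RPM in E10 AoV. The noncoding 1700018A04Rik, which lies 43.3 kb from Foxf2 on chromosome 13, differed by 5.99 (adjusted p = 1.1e-06), and its level went from 0.218 and 1.96 RPM (E9 AoD and E9 AoV means) to 2.54 and 0.183 RPM at E10.5. Lum, the matrix proteoglycan lumican, differed by 6.11 (adjusted p = 3.93e-09), from 19.5 and 175.7 RPM to 111 and 14.7 RPM. The plasma protein genes Apoa1 and Itih2 differed by 6.08 and 5.88 (adjusted p = 1.7e-05 and 8.17e-06), and both were below 1 RPM in both groups at E10.5.

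In the other direction, Msx3 differed by -4.86 and Wnt1 by -4.66 (adjusted p = 0.000293 and 0.000245), but both were below 0.05 RPM in both E10.5 groups, under the 3-read level, and Wnt1 had a read or none in each E9 AoV library. Their values are thus fitted ones that depend on the pseudocount and give no measured fold at E10.5. Emx2, a factor of the urogenital ridge, differed by -4.52 (adjusted p = 5.4e-06), with 14.0 and 4.55 RPM at E9.5 and 6.17 and 47.3 RPM at E10.5. AC098733.1, a lincRNA 54 bases from Emx2 on the opposite strand of chromosome 19, differed by -4.55 (adjusted p = 3.06e-05), and E330013P04Rik on the same chromosome by -4.52 (adjusted p = 4.67e-06).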

How the results depend on the processing

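No comparison and none of the 327 named genes changed the direction of a call under any alternative run, while 1 list did (intermediate mesoderm, below). With a pseudocount of 1 RPM the calls were 1196 (836 higher, 360 lower) and the stage differences 1173, with a test against a log2 fold change of 1 (treat) the calls were 877 (603 higher, 274 lower), and without a fold threshold they were 6938 (4147 higher, 2791 lower) with 4753 stage differences. The other scalings, filters and fits kept these counts within 1.5 times the reported ones. Leaving out 1 library gave 1914 to 2217 calls (1355 to 1609 higher, 559 to 629 lower) and 1865 to 2031 stage differences. The fit with the replicate block called 2093 genes, 1488 higher and 605 lower, and 2049 stage differences, and among the 327 named results it changed the call of Gdf7 alone. Of these results the treat test weakened 72, a pseudocount of 1 RPM 24 and quantile normalization 8. Among lists, intermediate mesoderm went from 4 lower to 1 lower and 2 higher without E9 AoD replicate 2, in which Lhx1, Pax8 and Pax2 stood at -0.99, -0.86 and -0.89, and TGF-beta and activin ligands from 3 higher to 1 with a pseudocount of 0.5 or 1 RPM, after quantile normalization or median-of-ratios scaling, or with sample weights. A pseudocount of 1 RPM moved 8 list counts by over 1.5 times, among them niche cytokines (2 higher), FGF ligands (3 lower), Hedgehog targets (1 lower) and Wnt inhibitors (1 lower), and the filter of 1 RPM in at least 3 libraries left 3 Wnt ligands lower. It also lowered the log2 fold change of genes near 0 by over 1.5 times, for example of Gdf2 from 4.70 to 2.48, of Foxa3 from 4.55 to 2.20, of Ihh from 4.51 to 2.84 and of Gfi1 from 2.66 to 1.56. Genes near the 3-read level are limited by depth.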

Other observations

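Guidance molecules of axons and vessels were split between the sides, with 5 of 19 higher in E9 AoV and 6 lower. Slit1, a repellent of the floor plate, was measured at 33.8, 40.8 and 38.9 RPM in E9 AoD and 2.83, 1.95 and 2.04 RPM in E9 AoV (log2 fold change -4.01, limma adjusted p = 5.89e-06). The netrin receptor Unc5c went the other way, at 25.9, 32.9 and 24.1 RPM against 101, 147 and 119 RPM (2.14, limma adjusted p = 4.03e-05). The ligand Ntn1 and the receptor Dcc were thus lower, and the receptors Unc5b and Unc5c higher, with ranges apart in each. The higher count was 3 with a pseudocount of 1 RPM, after quantile normalization or with sample weights.

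Of 16 FGF ligands 1 was higher and 5 were lower, and 3 were lower with a pseudocount of 1 RPM. The higher count was 2 without any of E9 AoD replicate 2, E9 AoV replicate 1 or E9 AoV replicate 3. Fgf10, a ligand of mesenchyme, read 11, 12 and 11.1 RPM against 22.5, 25.6 and 24.7 RPM (log2 fold change 1.09, limma adjusted p = 4.04e-05), and Fgf8, a ligand of the tail bud, read 5.11, 3.76 and 4.6 RPM against 1.73, 0.719 and 1.14 RPM (-1.89, limma adjusted p = 0.00128). Limma called none of 9 FGF feedback genes, of which 7 had an unadjusted and 5 an adjusted p below 0.05. The ranges of 7 lay apart, each with the higher values in E9 AoD. Of 12 genes of retinoic acid synthesis and breakdown 2 were lower, the binding proteins Crabp1 and Crabp2, while Aldh1a2, the main synthetic enzyme at this stage, read 139, 167 and 150 RPM against 90.2, 92.9 and 101 RPM (-0.68, limma adjusted p = 0.000349). Without E9 AoV replicate 2 the lower count was 1, and 1 gene was higher without E9 AoD replicate 2 or E9 AoV replicate 1. Among 6 TGF-beta and activin ligands 3 were higher and 1 lower, led by Tgfb2 at 15.9, 19.3 and 14.9 RPM against 52.8, 63.5 and 57.7 RPM (1.79, limma adjusted p = 2.17e-05). The higher count was 1 without E9 AoD replicate 3 or E9 AoV replicate 1, and the member called lower lost its call without E9 AoD replicate 2, E9 AoD replicate 3 or E9 AoV replicate 3.

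Of 7 tested germ cell genes 4 were higher at low levels, among them Pou5f1 at 0.787, 0.833 and 0.235 RPM against 1.82, 2.25 and 1.95 RPM (log2 fold change 1.69, limma adjusted p = 0.00898), and 1 was with a pseudocount of 1 RPM. Of 12 caudal progenitor genes 2 were higher and 5 lower. Limma called none of 12 proliferation genes, of which 9 had an unadjusted and 8 an adjusted p below 0.05. The ranges of 9 lay apart, each with the higher values in E9 AoD. Top2a had overlapping ranges, at 697, 785 and 814 RPM against 640, 740 and 700 RPM. A list of 11 genes joined Wnt targets with the secreted R-spondins Rspo1 to Rspo4. Of these 11 genes 1 was higher, the R-spondin Rspo2, and 2 were lower, Sp5 and Nkd2. Of 7 tested candidates that the study chose on these libraries 3 were higher (Wnt2b, Cxcl10 and Nell1), which is not independent evidence of their direction.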
